A study of Mus musculus with 6 samples.

Results

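Peroxisomal FA oxidation and peroxide removal were followed through 9 genes in IngWAT, the inguinal subcutaneous white fat depot of the mouse. They were chosen by name for peroxisomal import, β-oxidation, catalase and peroxisome elongation, namely *Abcd2*, *Abcd3*, *Ehhadh*, *Hsd17b4*, *Acaa1a*, *Acaa1b*, *Crot*, *Cat* and *Pex11a*, and they are 9 of the 46517 genes counted. All 9 passed the filter on low values, which kept 14967 genes that reached 1 cpm, a library-scaled count, in 1 sample or more. The study asked what loss of the histone deacetylase HDAC3 in adipose tissue does to the transcriptome. RNA-seq compared 3 floxed samples with 3 H3atKO samples, each made by pooling RNA of 2 or 3 mice (500 ng). The floxed mice carried the floxed *Hdac3* allele in the C57Bl6 strain. The H3atKO mice came from the cross between such mice and B6:FVB-Tg(Adipoq-cre)1Evdr/J, in which the adiponectin promoter drives Cre, so recombination is limited to cells that use this promoter, chiefly adipocytes. Mice of both groups were 5 to 9 months old and ate chow.

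Peroxisomes shorten very long chain, branched and dicarboxylic FAs that mitochondria handle poorly. ABC transporters bring the acyl-CoA in, an oxidation step makes the first double bond and releases hydrogen peroxide, a bifunctional enzyme hydrates and dehydrogenates the product, and a thiolase cleaves off acetyl-CoA. Carnitine octanoyltransferase prepares the shortened chains for export to mitochondria, and catalase breaks down the peroxide. In liver, many of these genes are classical targets of the FA-sensing receptor PPARα.

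Of the 9 genes, *Ehhadh*, *Abcd3* and *Cat* were upregulated in H3atKO, by 32.8-fold, 4.60-fold and 2.50-fold, and 0 passed the test for a decrease (limma voom, Benjamini-Hochberg adjusted p under 0.05). Over all tested genes, 9.42% were upregulated and 7.07% were down-regulated by the same test. At an unadjusted p under 0.05 the counts were 6 higher and 1 lower, against 20.4% and 23.4% of all tested genes. With edgeR they were 5 higher and 0 lower, against 12.8% and 18.4%, and with DESeq2 6 higher and 1 lower, against 19.6% and 23.2%. In 5 of the 9 genes every H3atKO sample lay above every floxed sample, against 23.1% of all tested genes. *Acaa1a* was the 1 member with every H3atKO sample below every floxed sample, against 28.6% of all tested genes. The median log2 fold change was 1.12 over the 9 genes and −0.09 over all tested genes. In a bulk sample, fewer cells of a type and less RNA per cell cannot be told apart.

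**Figure D1:**
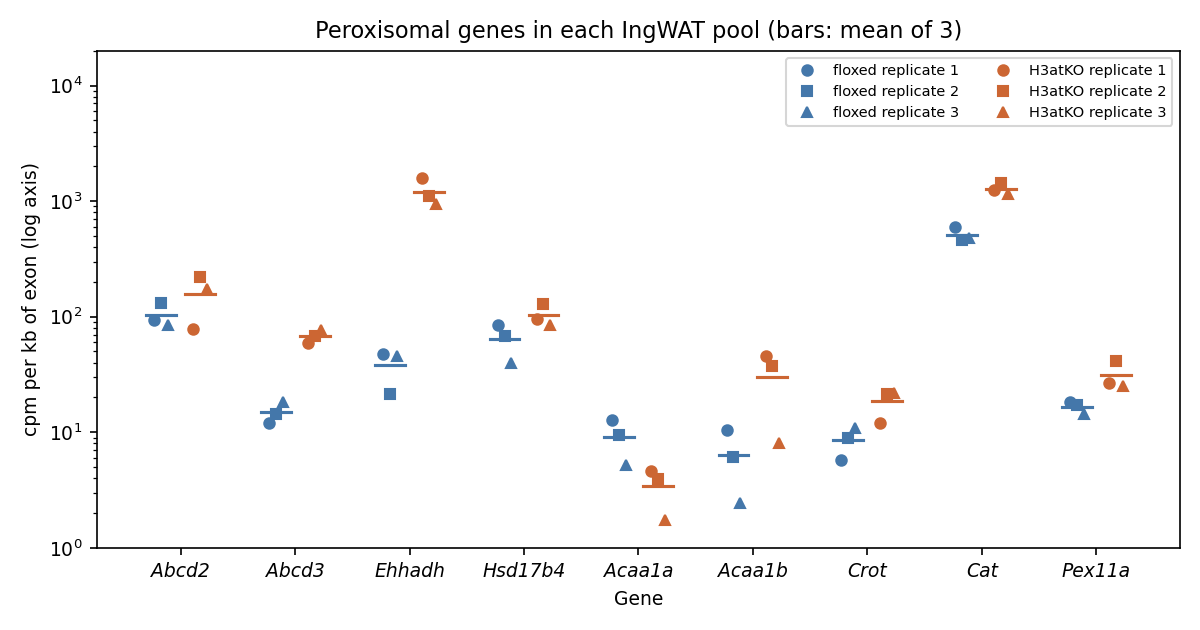
TMM-scaled cpm per kb of exon (log axis) of the 9 genes in each of the 6 IngWAT pools, with floxed in blue, H3atKO in orange, 1 symbol per replicate number and bars at the mean of 3. *Ehhadh* moved from a mean of 38.2 to 1209 cpm per kb and came beside *Cat* at 1279, and *Acaa1a* was the gene whose H3atKO points all lay below its floxed points.

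The libraries held between 23865507 and 35200685 counts on genes. *Hdac3* was at 68.9, 80.3 and 65.8 cpm in floxed and at 27.4, 21.1 and 12.9 cpm in H3atKO samples, a log2 fold change of −1.83 (SE 0.32, limma adjusted p = 0.0213), so each library matched its label. Reads with more than 1 place made up 28.3 to 35.2% of the alignments in floxed and 43.8 to 45.5% in H3atKO, and the mitochondrial genome took 6.92 to 12.9% and 26.9 to 35.3% of the counts. Across genes, the log2 fold change fell with the GC content of its longest transcript (Spearman's rho −0.71 across 14922 genes, which are not independent). Every floxed sample had a higher correlation of its deviations with GC content than every H3atKO sample, so an effect of GC content and one of the genotype cannot be told apart. Values after a GC correction, and values with the replicate number as a block, are therefore given beside the members and the other named peroxisomal, mitochondrial and corepressor genes whose call they change. With the block, 24.8% of all tested genes were called higher and 28.7% lower. After the GC correction, 5.46% were called higher and 3.2% lower.

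The summed level of 8 adipocyte markers was 14615 to 38885 cpm in floxed and 15834 to 27279 cpm in H3atKO pools. Their median log2 fold change was −1.78, and of these only *Plin4* was called, as lower. No listed marker was at 0 in every sample, and the part of other cells in the results was not tested. Brown adipocyte markers summed to 22.2 to 87.5 cpm in floxed and 298 to 1129 cpm in H3atKO (2 of 6 higher, *Dio2* and *Elovl3*). Of the hepatocyte markers only 2 of 6 were tested, with *Alb* lower, and the list summed to 19.6 to 95.1 cpm in floxed and to 0.759 to 2.43 cpm in H3atKO. Macrophage (3 of 7), endothelial (2 of 5), stromal (2 of 6) and Schwann cell (2 of 5) markers had genes called lower and 0 called higher. Lymphocyte (9 genes), skeletal muscle (7) and mammary epithelial (3 tested) markers had 0 calls in either direction by limma, although the lymphocyte sum ranged from 6.81 to 129 cpm in floxed and from 10.3 to 392 cpm in H3atKO, and the muscle sum from 612 to 2472 and from 2.66 to 3223 cpm. All 6 pools expressed Y-linked genes, 3 of 4 of them higher in H3atKO, with *Xist* at no more than 0.632 cpm.

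For 7 of the 9 genes the RefSeq promoter table (GRCm38.p6) held a promoter of 300 bases, 250 before the transcription start and 50 from it on. The promoters below belong to the gene with the largest change and to the 1 gene with a match to the DR1 motif. Those of the thiolase pair, whose count ratios did not overlap between the genotypes, are also given. DR1 is the direct repeat that PPAR and its partner RXR bind, and it was searched as AGGTCA, 1 base, AGGTCA, on both strands, with at most 2 mismatches among the 12 fixed letters. All are printed 5′ to 3′ in the direction of the gene, and capitals mark the DR1 match.
*Ehhadh*, chr16:21787785-21788084, minus strand: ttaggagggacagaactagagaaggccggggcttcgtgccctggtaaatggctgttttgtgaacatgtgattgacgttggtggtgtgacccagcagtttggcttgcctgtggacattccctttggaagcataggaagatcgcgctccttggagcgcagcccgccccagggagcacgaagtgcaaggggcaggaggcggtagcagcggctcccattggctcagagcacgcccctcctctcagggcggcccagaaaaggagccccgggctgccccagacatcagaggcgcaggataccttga
*Acaa1a*, chr9:119341044-119341343, plus strand: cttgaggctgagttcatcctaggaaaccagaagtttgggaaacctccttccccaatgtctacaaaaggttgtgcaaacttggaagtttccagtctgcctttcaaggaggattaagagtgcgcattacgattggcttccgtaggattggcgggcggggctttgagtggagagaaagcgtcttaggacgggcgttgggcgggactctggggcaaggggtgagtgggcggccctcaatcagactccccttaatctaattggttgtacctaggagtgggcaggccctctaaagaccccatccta
*Acaa1b*, chr9:119157044-119157343, minus strand: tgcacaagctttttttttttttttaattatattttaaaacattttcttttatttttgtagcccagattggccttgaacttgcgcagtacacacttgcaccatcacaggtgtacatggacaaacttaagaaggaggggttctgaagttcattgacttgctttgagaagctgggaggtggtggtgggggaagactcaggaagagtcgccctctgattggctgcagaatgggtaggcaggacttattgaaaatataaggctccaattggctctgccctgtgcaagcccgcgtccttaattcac
*Cat*, chr2:103485104-103485403, minus strand: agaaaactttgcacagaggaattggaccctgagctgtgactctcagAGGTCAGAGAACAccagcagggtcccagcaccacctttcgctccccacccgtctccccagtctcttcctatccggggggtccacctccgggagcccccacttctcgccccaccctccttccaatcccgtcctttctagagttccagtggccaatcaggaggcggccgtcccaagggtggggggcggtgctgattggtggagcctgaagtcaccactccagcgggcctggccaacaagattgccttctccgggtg

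The match in the *Cat* promoter, AGGTCAGAGAACA, had 2 mismatches and lay at positions −204 to −192 from the start. Such a match stood in 3.86% of the 32851 promoters of the table, and one with at most 1 mismatch in 0.554%. The other 7 promoters of members, *Ehhadh* and both thiolases included, did not hold these letters in this window.

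Very long chain acyl-CoA enters the peroxisome through ABCD transporters. *Abcd3* (ENSMUSG00000028127, chr3:121758774-121815302) encodes PMP70, which carries dicarboxylic, branched and bile acid intermediates. It was measured at 79.5, 94.9 and 121 cpm in the floxed pools and at 390.5, 447 and 506 cpm in the H3atKO pools. The groups were far apart, and the level rose from 98.3 ± 20.7 to 448 ± 57.7 cpm (SD, n = 3 each). This was a log2 fold change of 2.20 (SE 0.25, 95% CI 1.62 to 2.78, limma adjusted p = 0.00899) and was close to the same in each numbered pair, at 2.30, 2.24 and 2.07. It was called in 5 of the 6 fits that left out 1 sample and missed the threshold without floxed replicate 2, at an adjusted p of 0.0544. The log2 fold change was 1.61 after the GC correction (limma adjusted p = 0.00897) and 1.35 with library sizes alone (limma adjusted p = 0.0115).

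*Abcd2* (ENSMUSG00000055782, chr15:91145871-91191799), the adipose-rich transporter of very long chain and polyunsaturated acyl-CoA, was at 553, 782 and 503 cpm in floxed and at 463, 1323 and 1038 cpm in H3atKO. Its groups overlapped, since H3atKO replicate 1 was the lowest of the 6 samples while the other two were the highest. Its log2 fold change of 0.52 (SE 0.42, 95% CI −0.45 to 1.49) did not pass the test (limma adjusted p = 0.352), and its sign turned to −0.43 after the GC correction and to −0.33 with library sizes alone. The ratio of *Abcd2* to *Abcd3* counts inside a library, which no scaling of the library can move, was 2.80, 3.04 and 2.06 on the log2 scale in floxed and 0.25, 1.56 and 1.04 in H3atKO. *Abcd2* was the more abundant transcript in every pool, also per kb of exon, but the groups did not overlap, with a difference of −1.68 (two-sided exact permutation p = 0.1, the smallest that 3 against 3 samples allow, and 0.117 adjusted over 7 ratios).

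*Ehhadh* (ENSMUSG00000022853, chr16:21761287-21787807) encodes the L-bifunctional protein, which carries out the middle steps for straight chain and dicarboxylic acyl-CoA and is a textbook PPARα target. It was measured at 142, 64.1 and 135 cpm in floxed and at 4679, 3316 and 2815 cpm in H3atKO, from 2664 to 6462 and from 44524 to 113621 counts. The lowest H3atKO pool was far above the highest floxed pool, and the mean rose from 114 ± 43.2 to 3603 ± 965 cpm (SD, n = 3 each). On the log2 scale the change was 5.03 (SE 0.38, limma adjusted p = 0.00615), a fold change with a 95% CI of 17.7 to 60.8. Among all tested genes 26 had a larger log2 fold change. *Ehhadh* was called in each of the 6 fits that left out 1 sample, with values from 4.66 to 5.23, and after the GC correction at 4.77.

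*Hsd17b4* (ENSMUSG00000024507) encodes the D-bifunctional protein, which does the same middle steps for branched and very long chain substrates. It was at 288, 233 and 136 cpm in floxed and at 327, 440.2 and 287 cpm in H3atKO. The groups touched, since the lowest H3atKO pool, at 287.3 cpm, lay just under the highest floxed pool, at 288.0 cpm. A log2 fold change of 0.73 (SE 0.34, 95% CI −0.05 to 1.51, limma adjusted p = 0.134) did not pass, passed with the replicate block at 0.74 (adjusted p = 0.0404), and was −0.12 with library sizes alone. That scaling moved the median of all genes from −0.09 to −0.94, and relative to the median *Hsd17b4* was 0.82 higher under both.

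The bifunctional proteins were compared inside each library by counts that are not corrected for length, so that only the difference between the genotypes is read. The log2 ratio of *Ehhadh* to *Hsd17b4* counts was −1.02, −1.86 and −0.0062 in floxed and 3.84, 2.91 and 3.29 in H3atKO. Per kb of exon *Ehhadh* was below *Hsd17b4* in floxed replicates 1 and 2, above it in floxed replicate 3 (45.4 against 39.9 cpm per kb) and above it in every H3atKO pool. The difference was 4.31 (two-sided exact permutation p = 0.1, adjusted 0.117) and 4.02 after the GC correction. Against *Hadha*, the mitochondrial enzyme of the same middle steps, the log2 ratio of *Ehhadh* was −0.75, −1.55 and −0.37 in floxed and 2.61, 2.43 and 3.21 in H3atKO. The groups did not overlap, with a difference of 3.64 (exact permutation p = 0.1, adjusted 0.117), although *Hadha* itself was upregulated by 1.39 (adjusted p = 0.0448 by limma). Per kb of exon *Ehhadh* was already above *Hadha* in floxed replicates 1 and 3 and level with it in floxed replicate 2, at 21.5 and 21.6 cpm per kb.

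**Figure D2:**
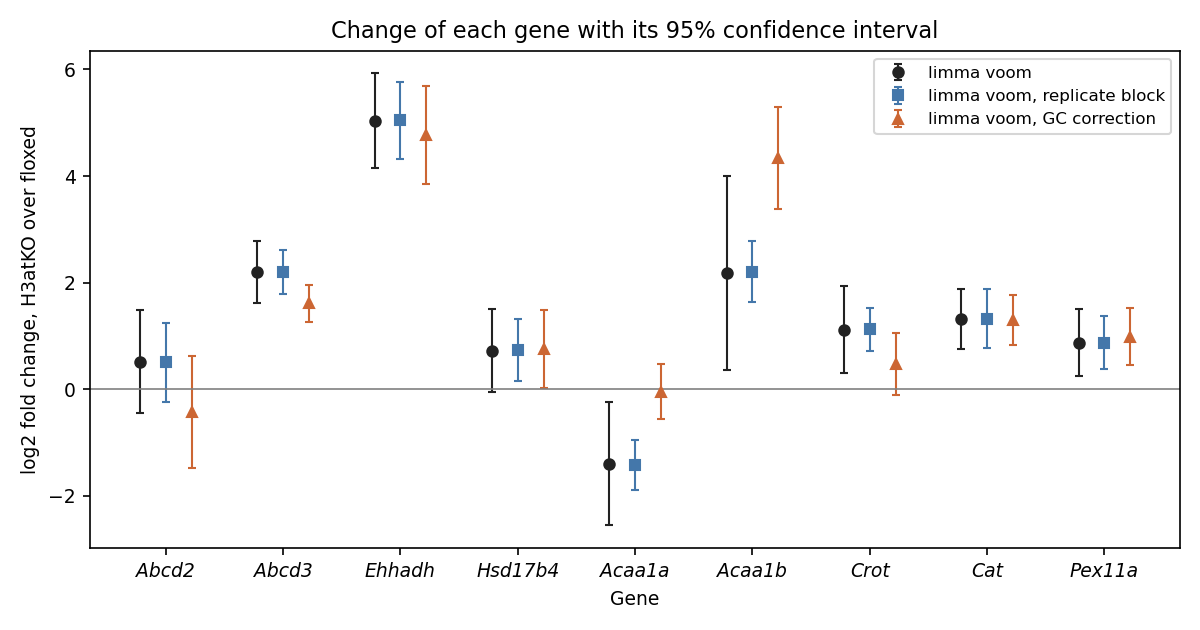
The log2 fold change of H3atKO over floxed for each of the 9 genes with its 95% confidence interval, from limma voom on genotype alone (black), with the replicate block (blue) and after the GC correction (orange). The intervals of *Ehhadh*, *Abcd3*, *Cat*, *Pex11a* and *Acaa1b* lay above 0 in all of them. With the GC correction *Acaa1a* moved from −1.39 to −0.04, *Acaa1b* from 2.19 to 4.34 and *Abcd2* from 0.52 to −0.43. With library sizes alone, which are not drawn, *Hsd17b4* was at −0.12 and *Abcd2* at −0.33.

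The last step belongs to 3-ketoacyl-CoA thiolase, which mice encode in a pair of neighbouring genes. *Acaa1a* (ENSMUSG00000036138, chr9:119339676-119350299) was at 56.6, 41.8 and 23.1 cpm in floxed and at 20.3, 17.4 and 7.71 cpm in H3atKO. *Acaa1b* (ENSMUSG00000010651, chr9:119148023-119157093) was at 20.7, 12.02 and 4.84 cpm in floxed and at 89.2, 73.8 and 15.7 cpm in H3atKO. The *Acaa1a* groups did not overlap, by a narrow gap, and the *Acaa1b* groups did, since H3atKO replicate 3 lay below floxed replicate 1. In both genotypes replicate 3 was the lowest for both genes.

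Neither thiolase passed the main test. Log2 fold changes were −1.39 for *Acaa1a* (SE 0.50, 95% CI −2.55 to −0.23, limma adjusted p = 0.0775) and 2.19 for *Acaa1b* (SE 0.78, 95% CI 0.37 to 4.0, adjusted p = 0.0772). Compared within numbered pairs the spread was smaller, at −1.47, −1.26 and −1.58 for *Acaa1a* and at 2.11, 2.62 and 1.70 for *Acaa1b*. With the replicate block both passed, at −1.42 (limma adjusted p = 0.00372) and 2.21 (adjusted p = 0.0029). After the GC correction *Acaa1a* was at −0.04 (adjusted p = 0.912) and *Acaa1b* at 4.34 (adjusted p = 0.00897). The longest transcripts of *Acaa1a* and *Acaa1b* had 55.3% and 58.9% GC, and those of the other 7 members 41.6% to 49.6%. In both groups the correlation of a sample's deviations with GC content fell from replicate 1 to replicate 3. Spearman's rho was 0.80, 0.62 and 0.097 in floxed and −0.43, −0.50 and −0.71 in H3atKO. Whether this lies behind the smaller spread within numbered pairs was not tested.

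Inside each library the pair was measured against itself. *Acaa1a* had 2.74, 3.48 and 4.76 counts for each count of *Acaa1b* in the floxed pools and 0.228, 0.237 and 0.491 in the H3atKO pools. The count ratio was thus above 1 in every floxed pool and below 1 in every H3atKO pool. The difference of the log2 ratio was −3.58 (two-sided exact permutation p = 0.1, adjusted 0.117), it lay between −3.94 and −3.37 when 1 sample was left out, and it was −4.36 after the GC correction. Because the genes are near-identical over stretches, their counts carry an uncertainty. Of the windows of 50 bases in the longest transcript, 15.6% of those of *Acaa1a* and 35.5% of those of *Acaa1b* were shared with the other gene. Reads no longer than a shared window have more than 1 place there and are counted for neither, and other read lengths were not examined. *Acaa1a* had 3055 windows of its own and *Acaa1b* 1057, or 2.89 times as many for *Acaa1a*. The count ratio of 2.74 in floxed replicate 1 therefore does not show that *Acaa1a* was the more abundant transcript there. *Acaa1a* also shared 290 exonic bases with *Myd88* on the opposite strand, and *Acaa1b* 224 with *Dlec1*. Summed, the pair had a log2 fold change of 0.37 (limma adjusted p = 0.656).

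Against the mitochondrial thiolase *Acaa2*, the log2 ratio of *Acaa1a* was −0.41, −0.55 and −0.68 in floxed and −0.99, −1.38 and −1.27 in H3atKO, with no overlap. The difference of −0.67 (exact permutation p = 0.1, adjusted 0.117) was −0.14 after the GC correction (exact permutation p = 0.4). *Acaa2* itself had a log2 fold change of −0.73 (limma adjusted p = 0.204), which passed with the replicate block at −0.76 (adjusted p = 0.0214) and was 0.095 after the GC correction.

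**Figure D3:**
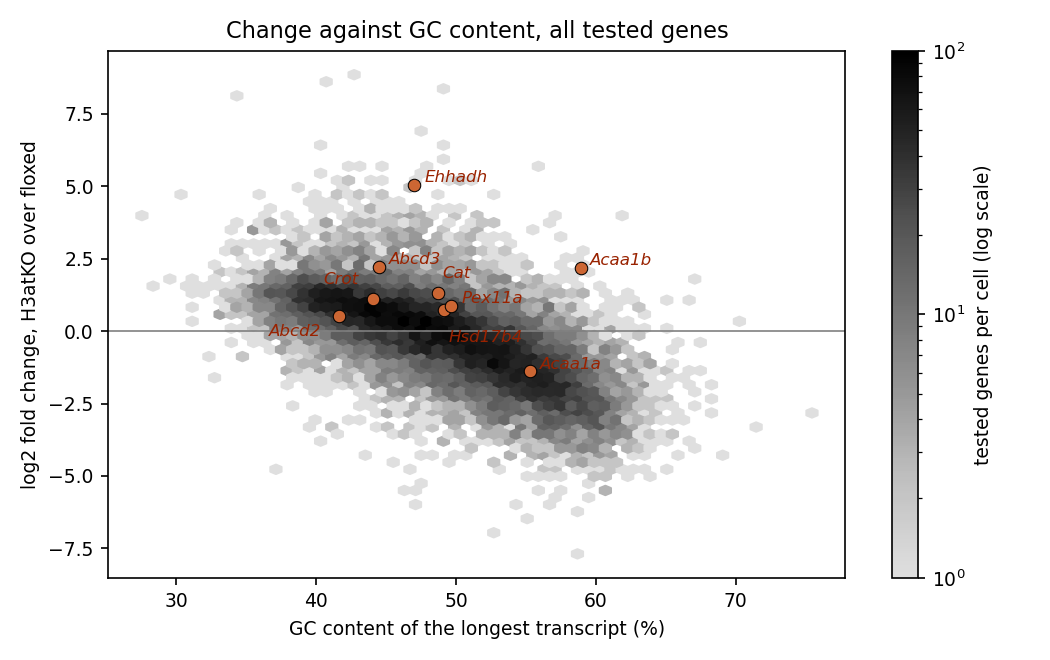
The log2 fold change of H3atKO over floxed (vertical) against the GC content of the longest transcript in percent (horizontal), with all tested genes as grey cells shaded by their number on a log scale and the 9 genes as orange points. Most genes follow a falling band, in which *Acaa1a* (55.3% GC) lies, while *Ehhadh* (47.0%) and *Acaa1b* (58.9%) lie above it.

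*Crot* (ENSMUSG00000003623, chr5:8966033-8997324) encodes carnitine octanoyltransferase, which loads medium chain products onto carnitine for transfer to mitochondria. It was at 31.5, 48.3 and 59.5 cpm in floxed and at 65.9, 118 and 120.4 cpm in H3atKO. The groups did not overlap, but the lowest H3atKO pool was close to the highest floxed pool. Its log2 fold change of 1.12 (SE 0.35, 95% CI 0.30 to 1.94) missed the threshold by limma (adjusted p = 0.0603) and passed by edgeR (adjusted p = 0.0453) and with the replicate block (limma adjusted p = 0.00431), where the pairs were at 1.06, 1.29 and 1.02. After the GC correction it was 0.47 (limma adjusted p = 0.234). The log2 ratio to *Crat*, the acetyltransferase for the shortest chains, was −3.49, −2.07 and −1.28 in floxed and −1.72, −1.05 and 0.72 in H3atKO. These groups overlapped, and the difference of 1.60 (exact permutation p = 0.2) was −0.13 after the GC correction.

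*Cat* (ENSMUSG00000027187, chr2:103453849-103485160) encodes catalase, which splits hydrogen peroxide into water and oxygen. It was the most abundant of the 9 genes per kb of exon in floxed fat and was measured at 1572, 1204 and 1245 cpm, against 3246.5, 3769 and 3013 cpm in H3atKO. All H3atKO pools were above all floxed pools, and the mean rose from 1341 ± 202 to 3343 ± 387 cpm (SD, n = 3 each). *Cat* thereby changed by 1.32 on the log2 scale (SE 0.24, 95% CI 0.76 to 1.89, limma adjusted p = 0.0240), and it was 1.298 after the GC correction (adjusted p = 0.0194). Of the 6 fits that left out 1 sample, *Cat* was called only in the one without floxed replicate 3, which called 2729 genes higher and 3828 lower of 14759. *Cat* ranged from 1.18 to 1.44 over the 6 fits, and leaving out floxed replicate 1 or 2 or any H3atKO replicate ended its call. With library sizes alone it was 0.47 (limma adjusted p = 0.162), and 1.41 above the median of all genes under that scaling as under TMM.

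*Pex11a* (ENSMUSG00000030545, chr7:79735957-79743131) encodes the inducible peroxin of peroxisome elongation and division. It was at 58.6, 55.1 and 45.6 cpm in floxed and at 85.3, 133 and 80.0 cpm in H3atKO, with no overlap. Its log2 fold change was 0.88 (SE 0.27, 95% CI 0.24 to 1.51), the smallest of the members without overlap. It missed the threshold by limma (adjusted p = 0.0596) and passed by edgeR (adjusted p = 0.0451), with the replicate block (limma adjusted p = 0.0149) and after the GC correction at 0.99 (limma adjusted p = 0.0457).

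The setting thus decided how many members were called. With the replicate block 7 members were called higher, all but *Abcd2* and *Acaa1a*, and *Acaa1a* was called lower. After the GC correction 5 were called higher, namely *Ehhadh*, *Abcd3*, *Cat*, *Acaa1b* and *Pex11a*, and 0 lower. Without floxed replicate 2 only *Ehhadh* was called, in a fit that called 1 gene in all.

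Per kb of exon, which allows levels to be compared between genes, the order in floxed fat was *Cat* (513 cpm per kb), *Abcd2* (103), *Hsd17b4* (64.3), *Ehhadh* (38.2), *Pex11a* (16.7), *Abcd3* (14.9), *Acaa1a* (9.17), *Crot* (8.51) and *Acaa1b* (6.37). Of the neighbours in this order, only *Cat* and *Abcd2*, and *Ehhadh* and *Pex11a*, had samples that did not overlap. In H3atKO the order was *Cat* (1279 cpm per kb), *Ehhadh* (1209), *Abcd2* (158), *Hsd17b4* (103), *Abcd3* (67.9), *Pex11a* (31.2), *Acaa1b* (30.4), *Crot* (18.6) and *Acaa1a* (3.44). Neighbours without overlap were then *Ehhadh* and *Abcd2*, *Hsd17b4* and *Abcd3*, *Abcd3* and *Pex11a*, and *Crot* and *Acaa1a*. *Cat* and *Ehhadh* were not apart. *Ehhadh* made up 5.37%, 2.91% and 6.51% of the summed level of the 9 genes per kb in floxed pools and 50.1%, 36.1% and 37.9% in H3atKO pools. The share of *Cat* was 66.2 ± 3.28% in floxed and 44.3 ± 4.01% in H3atKO (SD, n = 3 each).

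**Figure D4:**
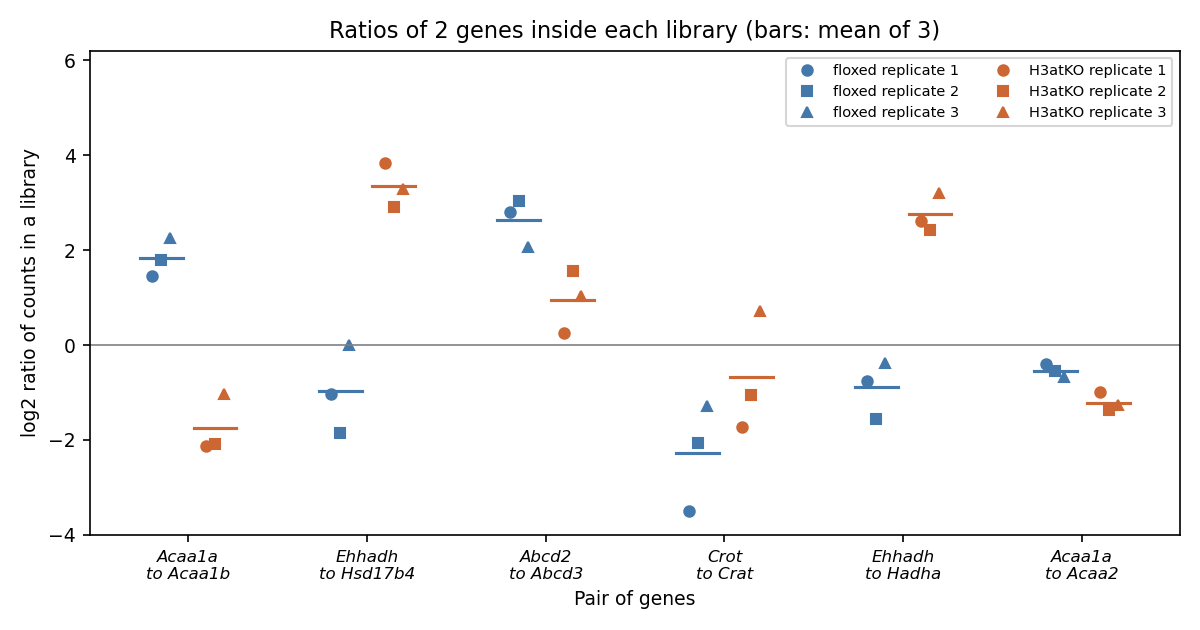
The log2 ratio of the counts of a pair of genes inside each of the 6 libraries, with floxed in blue, H3atKO in orange and bars at the mean of 3. Counts are not corrected for gene length. The ratio of *Acaa1a* to *Acaa1b* was above 0 in every floxed and below 0 in every H3atKO pool, the ratios of *Ehhadh* to *Hsd17b4* and to *Hadha* the other way round, and the ratio of *Crot* to *Crat* overlapped.

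Other genes of the peroxisome, and genes that act with or beside it, were described by lists. The first list held enzymes, transporters and helpers of peroxisomal α- and β-oxidation other than the members, some of which also act outside peroxisomes. Of its 28 tested genes, 10 were upregulated and 0 down-regulated by limma, with a median log2 fold change of 0.49. At an unadjusted p under 0.05, 12 were higher and 2 lower, edgeR called 12 and 1, and DESeq2 called 12 and 2. Among the called genes the largest increases were those of *Hacl1*, the lyase of α-oxidation, from 41.1 ± 1.47 to 433.5 ± 159 cpm (log2 fold change 3.32, limma adjusted p = 0.0079), *Nudt7*, a peroxisomal coenzyme A diphosphatase, by 2.34, and *Slc25a17*, the cofactor carrier of the peroxisomal membrane, by 2.01. *Scp2*, *Acsl1* and *Phyh* were among the others called, at 1.77, 1.74 and 0.88. After the GC correction *Scp2* passed at 1.22 (limma adjusted p = 0.0227), and *Acsl1* at 1.18 (adjusted p = 0.0652) and *Phyh* at 0.44 (adjusted p = 0.162) did not. After the GC correction 7 of the 28 were called higher and 0 lower, and with the replicate block 12 were higher and 6 lower.

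Of 18 genes of peroxisome biogenesis other than *Pex11a*, 2 were upregulated and 0 down-regulated by limma, and the median log2 fold change was −0.22. At an unadjusted p under 0.05, 5 were higher and 4 lower, edgeR called 4 and 3 and DESeq2 5 and 4. The upregulated genes were *Pex13*, part of the import machinery for matrix proteins, from 121 ± 27.6 to 481 ± 77.5 cpm, and *Pex3*, which anchors the import of membrane proteins, from 80.4 ± 19.8 to 258 ± 66.4 cpm (SD, n = 3 each). Their log2 fold changes of 2.01 and 1.68 were 0.86 and 0.53 after the GC correction, where neither passed (limma adjusted p = 0.0658 and 0.285). With the replicate block 5 genes of the list were called higher and 6 lower. Over all tested genes the shares higher and lower were 20.4% and 23.4% at an unadjusted p under 0.05, 12.8% and 18.4% with edgeR, 19.6% and 23.2% with DESeq2, and 24.8% and 28.7% with the block.

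The detoxification list held peroxisomal oxidases and enzymes acting on peroxides or epoxides, other than *Cat*, not all of them confined to peroxisomes. Of its 18 genes, 12 were tested, 2 were higher and 1 lower, with a median of −0.27. *Ephx2*, the soluble epoxide hydrolase, rose from 751 ± 57.4 to 4887 ± 1898 cpm (log2 fold change 2.62, limma adjusted p = 0.0106). *Prdx1*, a peroxiredoxin, rose by 1.69 (limma adjusted p = 0.0332), which was 0.81 after the GC correction (adjusted p = 0.228). *Xdh*, xanthine dehydrogenase, fell by 1.37 on the log2 scale (limma adjusted p = 0.0311). The liver and kidney enzymes *Hao1*, *Hao2*, *Dao*, *Pipox*, *Agxt* and *Uox* did not reach 1 cpm in any pool. Of 5 ether lipid genes, 0 were called in either direction by limma (median 0.74), 3 were higher and 1 lower at an unadjusted p under 0.05, and edgeR and DESeq2 each called 2 higher and 0 lower.

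Of 17 tested mitochondrial β-oxidation genes, 10 were higher and 1 was lower, with a median of 1.08. *Hadhb*, the thiolase subunit of the trifunctional protein, rose by 3.05, *Etfdh* by 2.48 and *Acadl*, long chain acyl-CoA dehydrogenase, by 2.41 on the log2 scale, and *Cpt1a*, the gate of mitochondrial import, fell by 1.15. *Cpt1a* was at −0.64 after the GC correction and did not pass (limma adjusted p = 0.0738), which left 9 of the list higher and 0 lower, and with the replicate block 10 were higher and 5 lower. Of 13 genes of the PPAR receptors, their partners and the HDAC3 corepressor, 3 were higher and 0 lower by limma, with a median of −0.39. At an unadjusted p under 0.05, 4 were higher and 4 lower, and edgeR and DESeq2 each called 4 and 5. *Ppara*, the receptor named above, rose from 5.55 ± 0.856 to 23.6 ± 8.50 cpm (log2 fold change 2.05, limma adjusted p = 0.0248), and *Tbl1xr1* and *Tbl1x*, subunits of the corepressor, rose by 2.16 and 1.20. *Tbl1x* was at 0.79 after the GC correction and did not pass (limma adjusted p = 0.102). With the replicate block 4 genes of this list were called higher and 6 lower.

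**Figure D5:**
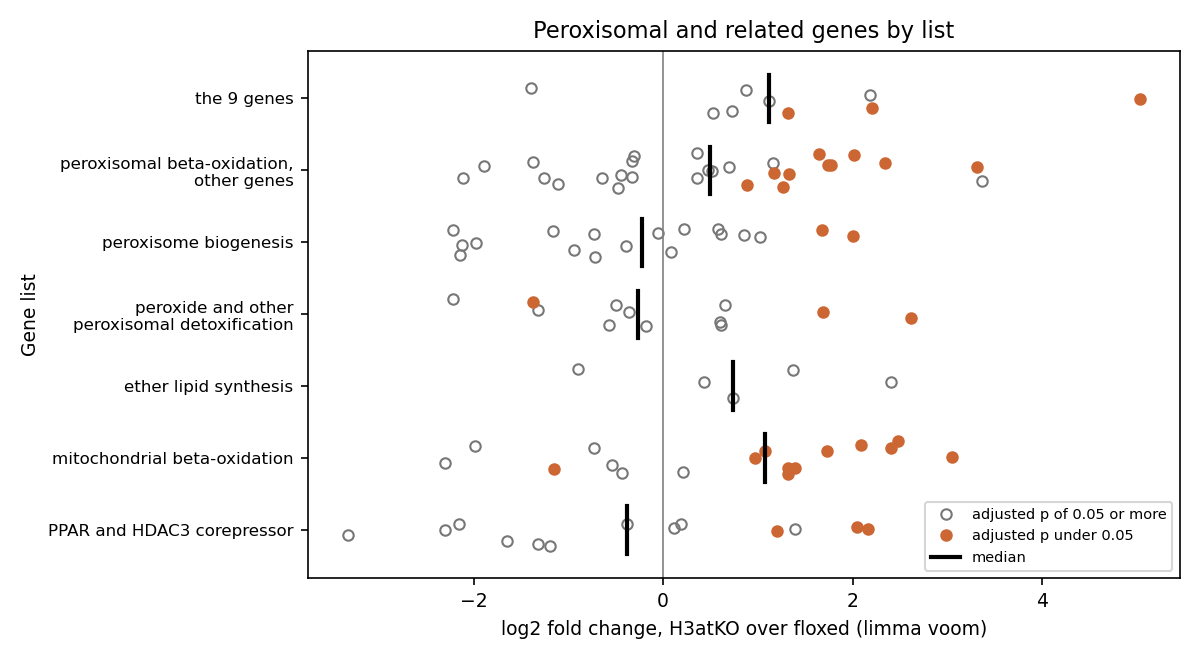
The log2 fold change of H3atKO over floxed for each tested gene (1 point per gene) in the 9 members and 6 lists of other genes, with filled points for an adjusted p under 0.05 in limma voom and bars at the median. The medians were 1.12 for the members, 1.08 for mitochondrial β-oxidation and −0.22 for peroxisome biogenesis. With library sizes alone the median of the members was 0.28 and that of all genes −0.94.

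Over the 6 samples, the gene whose log2 cpm followed a member most closely was *Gm43672* for *Ehhadh* (Pearson's r 0.998), *Kmt5a* for *Hsd17b4* (0.997), *Tufm* for *Acaa1a* (0.999), *Slc15a2* for *Acaa1b* (0.993), *Epb41l2* for *Abcd2* (0.992), *Uri1* for *Abcd3* (0.9997), *Agtpbp1* for *Crot* (0.999), *Rexo2* for *Cat* (0.997) and *Xrcc2* for *Pex11a* (0.991). These are descriptions over 6 points that share the genotype, and from 25 genes for *Hsd17b4* to 1821 genes for *Acaa1a* had an r above 0.95. No member was the closest gene of another.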

How the data were processed

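RNA of 3 floxed and 3 H3atKO IngWAT pools was sequenced from stranded poly(A) libraries. The authors trimmed reads (cutadapt 1.3), aligned them to GRCm38 (STAR 2.4.2a) and counted them per Ensembl gene (HTSeq 0.6.1, per the labels), and deposited these raw counts for each sample, unfiltered. The strand setting of the counting is not given in the sources used here. The 5 lines of tallies were read apart from the 46517 genes, of which 46005 matched GENCODE M21 (symbols, exon lengths, GC content of the longest transcript). At these depths 3 counts are 0.0852 to 0.126 cpm before TMM scaling, which covers counting error only.

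As in the study's methods, genes reaching 1 cpm in 1 sample or more were kept, scaled with TMM (edgeR 4.0.16) and compared with limma 3.58.1 voom on genotype (R 4.3.3). Calls were made at a Benjamini-Hochberg adjusted p under 0.05 over 14967 genes. Cpm are TMM-scaled. Ratios inside a library used counts plus 0.5 and a two-sided exact permutation test. The samples are pools, and nothing says how mice were assigned to them, so p-values measure the spread between these pools.

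The labels number the replicates 1 to 3 in both groups. After each group was centred on its own mean, same-numbered samples deviated together (r 0.510, 0.389 and 0.264, against −0.295 to −0.0516 for other numbers). When same-numbered values are positive, this centring makes the others negative on balance, so that part of the contrast is fixed by arithmetic. The correlation with GC content also fell from replicate 1 to 3 in both groups. The numbers were taken to pair the samples, and what same-numbered samples share was not tested. The pairing comes from the data and not from a stated batch.

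Alternatives were edgeR's quasi-likelihood test, DESeq2 1.42.0, other scalings and filters, sample quality weights, the replicate block, a GC correction (robust loess on GC content, span 0.3, which also removes any genotype effect that follows GC content), both together, and each sample left out. Limma voom with and without the block, edgeR and DESeq2 were run on simulated counts that held no GC trend and no pairing. The other settings were not simulated.

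Named were the 9 members, *Hdac3*, *Ppara*, the genes of the ratios, in each list the 3 largest called changes per direction, and the gene most correlated with each member. Other called genes were named after their values were seen. 1 gene under the rule, and 1 of the 7 ratios over which p-values were adjusted, are not reported here. The members, the lists and the tests were chosen with earlier results of these data known.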

Additional observations from a re-analysis of the deposited data

How the results depend on the processing

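Counts below are genes called higher and lower, and values are log2 fold changes. Members called higher or lower numbered 5 and 0 with edgeR, 6 and 1 with DESeq2, 7 and 1 with sample quality weights, 7 and 1 with the replicate block, 5 and 0 with the GC correction with or without the block, 2 and 1 for unscaled library sizes, and 6 and 1 at an adjusted p under 0.1. They stayed at 3 and 0 with RLE factors, without the mitochondrial genome, with no filter and with at least 10 counts in every sample. Over all tested genes, sample quality weights called 4003 higher and 4440 lower of 14967, and library sizes alone 306 and 5667. RLE factors called 1622 and 1095 of 14967, and the fit without the mitochondrial genome 1366 and 1062 of 15303. No filter gave 1092 and 1327 of 25279, and at least 10 counts in every sample 1575 and 1864 of 12466. The share of all genes at an adjusted p under 0.1 is not given. Block and GC correction together called 1932 and 1469 of 14922. The cause of each difference was not tested. *Acaa1a* was −1.35 with DESeq2, −2.28 with library sizes alone and −1.36 with quality weights, and *Acaa1b* was 2.32 with DESeq2 and with quality weights, and 4.45 with block and GC correction. *Crot* was 1.13 with edgeR, 1.19 with DESeq2, 1.00 with quality weights and 1.12 with the block. *Pex11a* was 0.91, 0.97, 0.89 and 0.88 in the same order, and 0.99 with the GC correction, alone or with the block. *Acaa1b* was 4.34 with the GC correction. *Acaa1a* was −1.42 and *Acaa1b* 2.21 with the block, which changed the calls of these, *Crot*, *Pex11a* and *Hsd17b4* and of no other member. *Hsd17b4* was 0.64 with quality weights and 0.74 with the block. It was −0.12 for library sizes alone, where *Abcd2* was −0.33, *Cat* 0.47 and the median of the members 0.28. *Abcd2* was −0.43 with the GC correction and −0.45 with block and GC correction, in which order *Crat* was 0.61 and 0.60 and *Acaa2* 0.095 and 0.093, against −0.47 and −0.73 in the main test, and *Crat* ranged from −0.83 to 0.082 with 1 sample left out (0.082 without H3atKO replicate 3). With the GC correction the ratio differences were −4.36 for *Acaa1a* to *Acaa1b*, −0.13 for *Crot* to *Crat*, 2.88 for *Ehhadh* to *Hadha* and −0.14 for *Acaa1a* to *Acaa2*. With the replicates paired, the sign-flip p of the ratios was at best 0.25, the smallest that 3 pairs allow.

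The other peroxisomal oxidation list had 1 gene lower with edgeR, 2 with DESeq2, 3 with quality weights, 6 with the block, 2 with block and GC correction, and 5 higher and 7 lower with library sizes alone. Biogenesis had 4 higher and 3 lower with edgeR, 5 and 4 with DESeq2, 6 and 5 with quality weights, 5 and 6 with the block, 7 lower with library sizes alone, 1 higher with the GC correction, 2 lower with block and GC correction, and 1 lower with RLE factors and with at least 10 counts. Detoxification had 2 lower with edgeR, DESeq2 and block and GC correction, 3 with quality weights and the block, 1 higher with the GC correction, and 1 higher and 6 lower with library sizes alone. Ether lipid genes had 2 higher with edgeR and DESeq2, 3 higher and 1 lower with quality weights and the block, 1 higher with block and GC correction, and 1 lower with library sizes alone. Mitochondrial β-oxidation had 2 lower with edgeR, 3 with DESeq2, 4 with quality weights, 5 with the block, 0 with the GC correction with or without the block, and 5 higher and 4 lower with library sizes alone. The PPAR and corepressor list had 5 lower with edgeR and DESeq2, 6 with quality weights and the block, 3 with at least 10 counts, and 1 higher and 7 lower with library sizes alone.

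With 1 sample left out, members called ranged from 1 to 4 higher and 0 to 1 lower, with a median of 0.93 to 1.33. The fit without floxed replicate 2 gave the low of 1 and called 1 gene higher and 0 lower of 14860 in all. The fit without floxed replicate 3 gave the high of 4 and called 2729 higher and 3828 lower of 14759. The remaining fits called 87 to 395 genes higher and 20 to 139 lower. Values ranged from 4.66 to 5.23 for *Ehhadh*, 2.06 to 2.37 for *Abcd3*, 1.18 to 1.44 for *Cat*, 0.86 to 1.40 for *Crot*, 0.60 to 1.02 for *Pex11a*, 0.42 to 0.95 for *Hsd17b4*, 0.16 to 0.95 for *Abcd2*, −1.74 to −1.001 for *Acaa1a*, 1.63 to 2.92 for *Acaa1b* and −2.11 to −1.56 for *Hdac3*. The ratio differences ranged from −3.94 to −3.37 (*Acaa1a* to *Acaa1b*), 3.86 to 4.79 (*Ehhadh* to *Hsd17b4*), −1.99 to −1.33 (*Abcd2* to *Abcd3*), 0.90 to 2.12 (*Crot* to *Crat*), 3.31 to 3.91 (*Ehhadh* to *Hadha*) and −0.78 to −0.59 (*Acaa1a* to *Acaa2*). List counts ranged from 0 to 12 higher and 0 to 4 lower (other peroxisomal oxidation), 0 to 4 and 0 to 5 (biogenesis), 0 to 2 and 0 to 3 (detoxification), 0 to 2 and 0 to 1 (ether lipid), 0 to 10 and 0 to 3 (mitochondrial), and 0 to 4 and 0 to 6 (PPAR and corepressor), with 0 calls of other lists without floxed replicate 2.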

Other observations

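The acyl-CoA synthetase and transporter *Slc27a2*, chosen here after its values were seen, had 116, 25 and 111 counts in floxed and 1234, 110 and 227 counts in H3atKO pools. Scaled for the library, these were 2.55, 0.601 and 2.70 cpm in floxed and 50.8, 5.61 and 14.4 cpm in H3atKO, so the groups did not overlap. The log2 fold change of 3.37 (SE 0.99) did not pass the test (limma adjusted p = 0.0534). It was 4.06 after the GC correction (limma adjusted p = 0.0521) and passed with the replicate block (limma adjusted p = 0.00337).

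*Ech1*, an auxiliary enzyme for unsaturated FAs found in peroxisomes and mitochondria and also chosen after its values were seen, was at 413, 311 and 92.9 cpm in floxed and at 76.0, 87.1 and 20.6 cpm in H3atKO pools. Every H3atKO pool was below every floxed pool, but floxed replicate 3 was close to H3atKO replicate 2. The log2 fold change of −2.11 (SE 0.71, limma adjusted p = 0.0688) was −0.99 after the GC correction (limma adjusted p = 0.221). With the replicate block *Ech1* passed the test (limma adjusted p = 0.00288).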
